A study of Mus musculus with 3 samples.

Results

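The proteasome subunit genes were followed in kidney RNA of mice with a cardio-renal syndrome and of mice with loss of 1 kidney alone. Members were the genes whose single symbol in the array's annotation begins with *Psma*, *Psmb*, *Psmc* or *Psmd* followed by a number, or is *Psme1* to *Psme4*, and each gene was read from its probe set with the highest mean signal. This gave 42 genes of the 18194 on the array that had a named probe set. *Psme2* is not among them, because its probe set also carries the symbol of a close copy, *Psme2b*. No measured difference entered the choice.

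All samples came from male C57BL/6J mice 16 weeks old, and all mice had 1 kidney removed. The cardio-renal syndrome group (2 arrays) had in addition a constriction of the abdominal aorta, placed under the point where the renal arteries leave it, 2 weeks before the kidney was removed. The uninephrectomy-alone group (1 array) had no banding, and the series' design names a sham operation as the counterpart of banding. The remaining kidney was homogenised whole 6 weeks after the removal, so the signals mix every cell type of the organ, and fewer cells of a type and less RNA per cell cannot be told apart. Whether each RNA sample came from 1 mouse or from several is not stated, and the p-values reflect the spread among the samples at hand, which may be technical.

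The proteasome degrades proteins that carry ubiquitin chains. Its 20S core is a barrel of alpha rings, which form the gate, around beta rings, which hold the proteolytic sites, and the 19S regulatory particle at its ends recognises, unfolds and feeds in the substrate. In cells exposed to interferon-gamma, and constitutively in many leukocytes, 3 immunoproteasome subunits take the places of the 3 catalytic beta subunits. Transcription of the subunit genes is raised together by the factor NRF1 (gene *Nfe2l1*) when proteasome activity falls short.

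Because the constitutive and the interferon-inducible catalytic subunits are known to be controlled differently, a stretch of 60 bases from the 250 upstream of the start is shown for *Psmb5*, for its replacement *Psmb8* and for *Psmb9*, a further immunoproteasome gene. The stretches were placed around the marked motif, a different one in each gene, and lie outside the RefSeq gene. The interferon motifs searched, given below, were not found in the promoter of *Psmb9*. The sequences are RefSeq's (GRCm38.p6), written in the direction of transcription. In *Psmb5* (chr14:54618009-54618068, minus strand), capitals mark the antioxidant response element core (TGACNNNGC), read by the NRF factors. In *Psmb8* (chr17:34198072-34198131, plus strand) they mark the core of an interferon-gamma activated site (TTCNNNGAA), and in *Psmb9* (chr17:34187331-34187390, minus strand) a CCAAT box on the opposite strand.
Psmb5: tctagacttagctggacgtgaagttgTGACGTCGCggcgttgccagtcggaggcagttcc
Psmb8: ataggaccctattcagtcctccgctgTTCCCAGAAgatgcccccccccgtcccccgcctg
Psmb9: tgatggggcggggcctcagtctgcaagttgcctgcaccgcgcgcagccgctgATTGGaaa

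RefSeq promoters, from 250 bases before to 50 after the start, were at hand for 35 of the members, and 8 motifs were searched in them on both strands, without regard to overlap between motifs. The antioxidant response element core stood in 6 of the 35 (17.1%), against 14% of 27025 genes, and the CCAAT box in 14 (40%), against 41.1%. The interferon-stimulated response element core (GAAA repeated after 2 bases of any kind) stood in 4 (11.4%), against 3.99%. These were *Psmb3*, *Psmd4*, *Psmd9* and *Psme1*, and so not immunoproteasome beta genes. The interferon-gamma activated site core stood in 2 (5.71%), *Psmb8* and *Psmd2*, against 9.55%. The GC box (GGGCGG) was found in 21 (60%), against 38.2%. The nuclear respiratory factor site (GCGCA and GCGC with 1 base of any kind between) was found in 6 (17.1%), against 5.19%. The YY1 site (AANATGGC) also stood in 6 (17.1%), against 6.96%, and the Maf recognition element (TGCTGA and TCA with 1 base of any kind between) in 0, against 0.492%. These are matches of letters, and binding was not measured.

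Most subunits were bright on all 3 arrays. In the uninephrectomy-alone array, 34 of the 42 genes had a MAS5 signal above 1000, against an array median of 100.1. The signal of a probe set also depends on its probes, so the levels of different genes were not compared. *Psma8*, a testis form of an alpha subunit, and *Psmb11*, the thymus form of the beta subunit *Psmb5*, were dim. *Psma8* had signals of 32.6 and 50.1 in the cardio-renal arrays, against 22.9 with uninephrectomy alone, and *Psmb11* had 8.67 and 10.7, against 27.4. Both fell below the filter on low values (a mean log2 value of 7.01, the median of all probe sets) and were not tested, which left 40 members among 11147 genes.

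**Figure D1:**
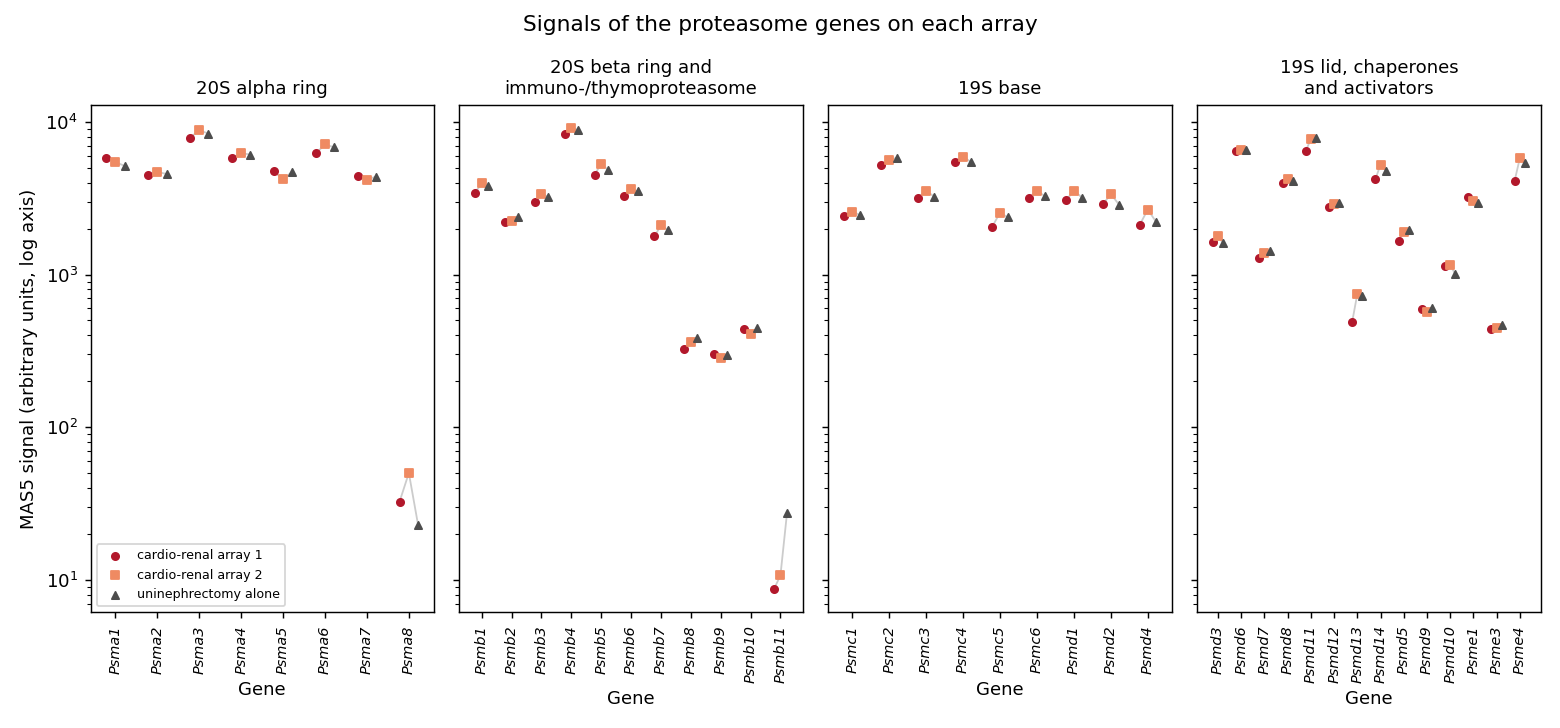
MAS5 signal (arbitrary units, log axis) of each of the 42 proteasome genes on cardio-renal array 1, cardio-renal array 2 and the uninephrectomy-alone array, by position in the complex. The 3 arrays lie close together for all genes except the dim *Psma8* and *Psmb11*, and *Psmd13* and *Psme4* are visibly lower on cardio-renal array 1.

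Proteasome transcripts differed little between cardio-renal syndrome and uninephrectomy alone. The mean log2 differences, cardio-renal minus uninephrectomy, lay between -0.24 (*Psmd13*) and 0.19 (*Psmd10*) over the 40 genes, with a median of -0.027, against -0.0047 over all genes tested. The mean cardio-renal signal of 37 of the 40 was within 10% of the uninephrectomy signal. The median absolute difference was 0.048 for the members, against 0.113 for all genes tested and 0.095 for the 6881 genes above the 75th percentile of probe sets, a range that held 36 of the members. With limma, fitted over all genes and adjusted by the Benjamini-Hochberg method at 0.05, 0 of the 40 members were called, against 0.0% of all genes, and 0 members had an unadjusted p under 0.05, against 2.51% of all genes (280 genes). No member was 2-fold or more away from the control, on 1 side, on both cardio-renal arrays, where 0.135% of all genes were so on the higher and 0.0538% on the lower side.

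A p that misses the threshold does not show equal levels, so limma's 95% interval was taken for each gene. It lay within 2-fold in either direction for all 40 members tested and within 1.5-fold for 36 of them, with a median half-width of 0.40 on the log2 scale. The lowest bound was -0.83, for *Psmd13*, and the highest 0.57, for *Psmd10*. These intervals borrow their spread from genes of like brightness, since only the pair of cardio-renal arrays gives the fit its residual spread (1 degree of freedom), and the lone control array is taken to vary like them.

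**Figure D2:**
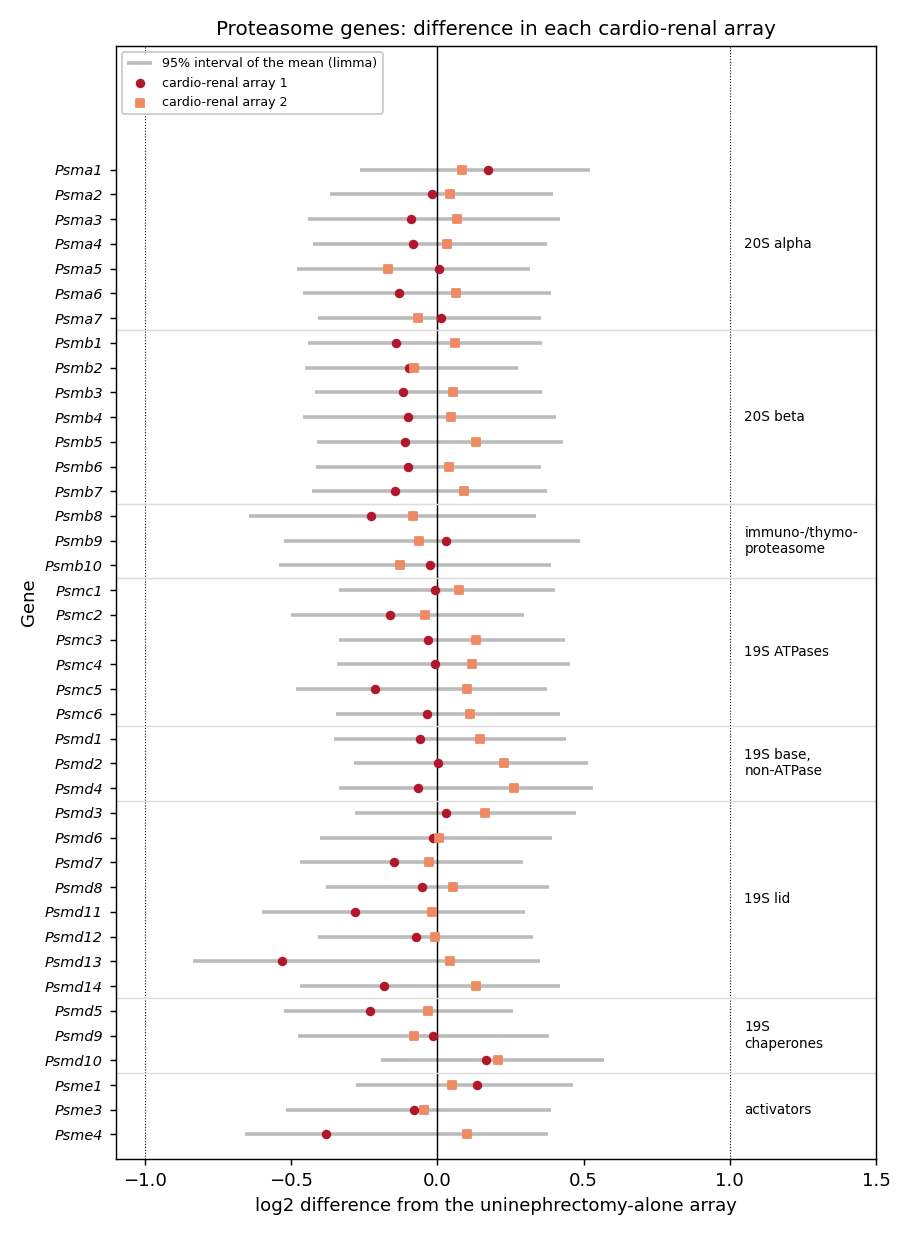
Log2 difference from the uninephrectomy-alone array for each of the 40 tested genes on cardio-renal array 1 (circles) and array 2 (squares), with limma's 95% interval of the mean (bars) and dotted lines at 2-fold. Every bar spans 0 and stays inside the dotted lines, and 25 genes have their 2 points on opposite sides of 0.

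Within the 20S core, the alpha ring genes had a median difference of -0.025 over the 7 tested. *Psma3* had signals of 7878 and 8794 in the cardio-renal arrays, against 8390 with uninephrectomy alone. *Psma2*, *Psma4*, *Psma5*, *Psma6* and *Psma7*, the other ring positions, had mean log2 differences between -0.081 and 0.013. *Psma1* was the alpha gene furthest from 0 among those tested, with signals of 5805 and 5456 in the cardio-renal arrays, against 5148 with uninephrectomy alone, a difference of 0.13 ± 0.06 (SD, n = 2). On this probe set, both cardio-renal values of *Psma1* were above the single control value, but its interval ran from -0.26 to 0.52. Dimmer probe sets of *Psma1* above the filter stood at 0.43 and 0.15 on array 1 and at -0.10 and -0.47 on array 2. With all its probe sets averaged, *Psma1* stood at -0.0035. Second probe sets of *Psma3* (dim), *Psma5* and *Psma7* had means of 0.45, 0.035 and 0.035, of opposite sign to the ones used.

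On the probe sets used, the constitutive beta ring genes were all lower on cardio-renal array 1 than on the uninephrectomy array. On array 2, 6 of the 7 were higher. Other probe sets nearly as bright differed, at 0.32 on array 1 and -0.054 on array 2 for *Psmb3* and at 0.043 and 0.0034 for *Psmb4*. Dim further ones of *Psmb1* stood at 0.052 and -0.078 on array 1. *Psmb5*, the chymotrypsin-like site, had signals of 4497 and 5325 in the cardio-renal arrays, against 4858 with uninephrectomy alone, a difference of 0.010 ± 0.17 (SD, n = 2). *Psmb6*, the caspase-like site, had 3271 and 3613, against 3511, and *Psmb7*, the trypsin-like site, had 1776 and 2097, against 1968. For each of the 3 catalytic genes, the control value thus lay between the cardio-renal values. The structural subunit gene *Psmb2* was the exception in the ring, with 2220 and 2247 in the cardio-renal arrays, against 2377 with uninephrectomy alone, a difference of -0.089 ± 0.012 (SD, n = 2). *Psmb1*, *Psmb3* and *Psmb4*, also structural, stood at -0.042, -0.031 and -0.027.

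The 3 immunoproteasome genes tested were above the filter, and none was higher in both cardio-renal arrays. *Psmb8*, which replaces *Psmb5*, had signals of 323.7 and 360.5 in the cardio-renal arrays, against 383.6 with uninephrectomy alone, a difference of -0.15 ± 0.10 (SD, n = 2) with an interval from -0.65 to 0.34. With its dim second probe set averaged in, *Psmb8* stood at 0.16, of opposite sign. *Psmb9*, which replaces *Psmb6*, had 303.3 and 282.7, against 296.9, and stood at -0.018 ± 0.065 (SD, n = 2). *Psmb10*, which replaces *Psmb7*, had 439.1 and 407.0, against 447.2, and stood at -0.076 ± 0.072 (SD, n = 2). The upper bounds of these intervals correspond to 1.26-fold for *Psmb8*, 1.40-fold for *Psmb9* and 1.31-fold for *Psmb10*, so a larger mean rise lay outside the 95% interval of each. The class median was -0.076 over these 3 genes, -0.025 on array 1 and -0.083 on array 2, and it was -0.018 when all probe sets of a gene were averaged.

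The genes of antigen presentation that work with the immunoproteasome also showed small differences. The list of interferon and antigen presentation genes had a median of 0.015 over its 18 measured members of 20, with 4 higher in both cardio-renal arrays, 1 lower in both and 13 of opposite signs; 0 passed limma's adjusted p and 0 had an unadjusted p under 0.05. *Gbp2*, an interferon-induced GTPase, stood at 0.23 ± 0.01 and *Ifit1*, an antiviral RNA-binding protein, at 0.11 ± 0.05 (SD, n = 2). The invariant class I chain gene *B2m* stood at -0.051 ± 0.029. *Tap1*, the peptide transporter gene next to *Psmb9*, had signals of 235.4 and 243.4 in the cardio-renal arrays, against 232.7 with uninephrectomy alone, and was picked for its position after its value was seen.

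Leukocyte markers were read beside the immunoproteasome genes, which leukocytes express. Of 19 measured markers, 12 were lower in both cardio-renal arrays (63.2%, against 29.8% of all genes tested). Another 4 were higher in both (21.1%, against 30.6%). The medians of the 19 were -0.084 on array 1 and -0.20 on array 2. Of the 10 above the filter, 6 were lower in both and 2 higher in both, with medians of -0.050 and -0.22. The summed signal of the 19 was 7862 and 8034 in the cardio-renal arrays, against 9160 with uninephrectomy alone. No marker was at 0, although 9 of the 19 were below the filter. Bright genes weigh most in this sum. The brightest marker, *Csf1r*, named after its value was seen, had 2845 and 3683, against 3708. The next, *Lyz2*, had 950.3 and 790.0, against 1332. Among the markers, the macrophage lysozyme gene *Lyz2* stood at -0.60 ± 0.18 and the complement gene *C1qc* at -0.35 ± 0.15, while *C1qb* stood at 0.31 ± 0.02 and *Cd68* at 0.17 ± 0.09 (SD, n = 2). The part of leukocyte content in the values of *Psmb8* to *Psmb10* was not tested.

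In the 19S base, the ATPase ring that unfolds substrates had a median of 0.035 over its 6 genes. *Psmc4* had signals of 5424 and 5919 in the cardio-renal arrays, against 5450 with uninephrectomy alone, and *Psmc3* had 3164 and 3545, against 3236. *Psmc2* was the one ATPase gene lower in both cardio-renal arrays, with 5191 and 5647, against 5814, a difference of -0.10 ± 0.08 (SD, n = 2). *Psmc1*, *Psmc5* and *Psmc6* had differences of 0.033, -0.056 and 0.037.

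The non-ATPase genes of the base had a class median of 0.097 over 3 genes, but of -0.027 with the mean of all probe sets. *Psmd2*, a scaffold that docks ubiquitin shuttles, had signals of 2876 and 3366 in the cardio-renal arrays, against 2872 with uninephrectomy alone. *Psmd4*, a ubiquitin receptor, had 2116 and 2665, against 2218, a difference of 0.097 ± 0.23 (SD, n = 2). Its next probe set above the filter stood at 0.098, but a dim one below the filter stood at -1.30 on array 1 and -0.91 on array 2, and the mean of all 3 was -0.30, of opposite sign. *Psmd1*, the other large scaffold, had 3061 and 3537, against 3194. In each of these 3 genes the higher values came from array 2, at 0.23, 0.26 and 0.15, while array 1 stood at 0.0021 for *Psmd2*, -0.067 for *Psmd4* and -0.061 for *Psmd1*.

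The lid, which holds the deubiquitinase that strips the chain, had a median of -0.033 over 8 genes. *Psmd14*, that deubiquitinase, had signals of 4216 and 5250 in the cardio-renal arrays, against 4789 with uninephrectomy alone, a difference of -0.025 ± 0.22 (SD, n = 2). *Psmd11*, which ties the lid to the core, had 6441 and 7747, against 7844, and all 4 of its probe sets above the filter had negative means, from -0.22 to -0.12. On the probe sets used, *Psmd13* had the largest single-array difference among the members tested, at -0.53 on array 1 and 0.045 on array 2. Its signals were 492.1 and 746.6 in the cardio-renal arrays, against 722.9 with uninephrectomy alone. Its 2 other probe sets above the filter stood at 0.090 and 0.11, so the probe sets of *Psmd13* disagree in sign. *Psmd3* stood at 0.096, *Psmd6* at -0.0041, *Psmd7* at -0.088, *Psmd8* at 0.00092 and *Psmd12* at -0.040. A dimmer probe set of *Psmd7* above the filter stood at -0.54 on array 1 and -0.74 on array 2. With all its probe sets averaged, *Psmd7* stood at -0.25.

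Among the chaperones that assemble the 19S base, *Psmd10* (gankyrin, also described as an oncoprotein) was the gene furthest above the control among the 40 tested. It had signals of 1130 and 1163 in the cardio-renal arrays, against 1003 with uninephrectomy alone, a difference of 0.19 ± 0.03 (SD, n = 2), and its interval ran from -0.19 to 0.57. Its unadjusted p, 0.286 by limma, was the lowest among the members tested, with an adjusted p of 0.9998. *Psmd5* had signals of 1663 and 1911, against 1956, and stood at -0.13 ± 0.14, and *Psmd9* had 595.1 and 567.1, against 601.1, and stood at -0.047 ± 0.047 (SD, n = 2). The class median was -0.047, but 0.12 with the mean of all probe sets.

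Of the alternative activators, *Psme1*, a subunit of the interferon-inducible activator ring PA28, had signals of 3237 and 3053 in the cardio-renal arrays, against 2946 with uninephrectomy alone, a difference of 0.093 ± 0.059 (SD, n = 2). *Psme3*, the nuclear form, had 438.6 and 449.7, against 465.4. *Psme4*, which encodes the large activator PA200, had 4128 and 5769, against 5379, or -0.38 on array 1 and 0.10 on array 2. Its next 2 probe sets by signal were likewise low on array 1, at -0.33 and -0.39, and near 0 on array 2, at 0.050 and -0.044, whereas 2 dimmer ones stood at 0.28 and 0.38 on array 1. For *Psme4* the control value therefore lay inside the cardio-renal range on its brightest probe set.

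The clearest regularity among the members was a difference between the cardio-renal arrays themselves. Of the 40 genes, 33 were lower on array 1 than on array 2, against 46.9% of all genes tested. For 22 of the 40, array 1 was the lowest and array 2 the highest of the 3 arrays, against 18.6% of all genes. The median of the members was -0.077 on array 1 and 0.052 on array 2, where all genes stood at 0.0084 and -0.0028. Correspondingly, 5 members were higher in both cardio-renal arrays (30.6% of all genes), 10 were lower in both (29.8%) and 25 had opposite signs (39.6%). No test was made of this pattern, because both arrays belong to 1 group.

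The pattern was spread unevenly over the complex. On the probe sets used, all 7 constitutive beta genes and all 6 ATPase genes were lower on array 1 than on array 2. So were all 3 non-ATPase base genes and all 8 lid genes. The count was 4 of 7 tested alpha genes, 2 of 3 chaperone, 2 of 3 activator and 1 of 3 immunoproteasome genes. Over the regulatory particle as a whole, 19 of 20 genes were lower on array 1. The classes with all genes lower were not uniform over further probe sets above the filter. Those of *Psmb3*, *Psmb4*, *Psmc6* and *Psmd7* were higher on array 1. Those of *Psmb1*, *Psmc2*, *Psmc4*, *Psmd4*, *Psmd6*, *Psmd11* and *Psmd13* were lower. The difference between classes was not tested. With the mean of all probe sets of a gene in place of the brightest, 26 of the 40 genes were lower on array 1, against 46.1% of all genes.

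**Figure D3:**
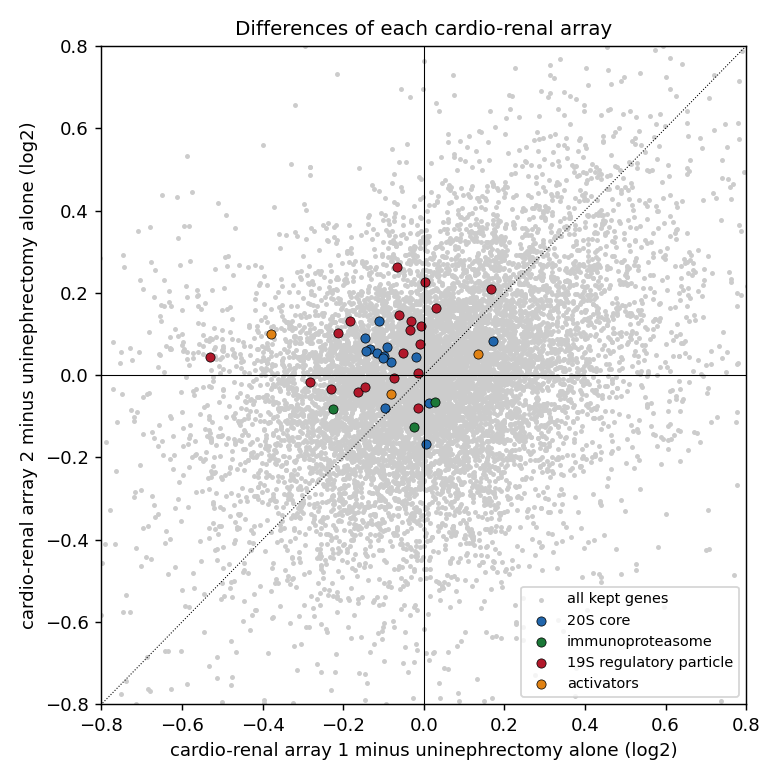
Log2 difference from the uninephrectomy-alone array on cardio-renal array 1 (x axis) and array 2 (y axis) for all kept genes (grey) and the 40 tested proteasome genes (coloured by particle), with the line of equality dotted; 314 genes lie outside the axes, which end at 0.8. Both axes share the same control array. Most proteasome genes sit near the origin, and 33 of the 40 lie above the dotted line.

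Array 1 also stood apart in other ways. All 10 male-biased kidney genes of a list were lower on array 1 than on array 2, against 46.9% of all genes tested. The list was chosen with earlier results of these data known, so its pattern is no separate evidence. Its medians were -1.32 on array 1 and 0.044 on array 2. The steroid hydroxylase gene *Cyp7b1* had 2003 and 10266 in the cardio-renal arrays, against 13094 with uninephrectomy alone. Proximal tubule markers, which check the labelled tissue, were bright on all arrays, as with the endocytic receptor gene *Lrp2* at 13432 and 14846 in the cardio-renal arrays, against 13585 with uninephrectomy alone. Of the 11 measured, 9 were lower on array 1 than on array 2, with medians of -0.19 and 0.058. The markers furthest from the control in both arrays were *Slc13a3* (0.32 ± 0.23), *Slc5a12* (0.19 ± 0.14), *Hnf4a* (-0.22 ± 0.20) and *Cubn* (-0.17 ± 0.06). Transcripts of heart muscle, by contrast, were higher on both cardio-renal arrays for 13 of 14 listed markers (92.9%, against 30.6% of all genes tested). None of these markers was lower in both, against 29.8% of all genes. Their summed signal was 2910 and 2269, against 818 with uninephrectomy alone. *Myh6*, the cardiac myosin, had signals of 349.4 and 188.2, against 9.93, and *Actc1*, cardiac actin, 545.0 and 400.0, against 72.7. Only 6 of the 14 heart markers were above the filter and tested, and 5 of these 6 were higher in both cardio-renal arrays. The medians of the 6 were 1.45 on array 1 and 1.27 on array 2, where all genes stood at 0.0084 and -0.0028. *Myh6* stood at 2.89 ± 0.57 and *Actc1* at 2.29 ± 0.30 (SD, n = 2). Of the marker genes tested, 0 passed limma's adjusted p. The part of any of these in the proteasome values was not tested.

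Another abundant multi-subunit machine gave a comparison. The 8 genes of the CCT chaperonin, which folds actin and tubulin, had a median of 0.008, with -0.027 on array 1 and 0.031 on array 2. Of the 8, 5 were lower on array 1 than on array 2 (62.5%, against 46.9% of all genes tested). *Cct7* and *Cct2* stood at -0.054 ± 0.020 and -0.017 ± 0.006, and *Cct8* at 0.026 ± 0.006 (SD, n = 2). Its median absolute difference of 0.031 was, like that of the proteasome genes, below the 0.113 of all genes.

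Genes that build, import or regulate the proteasome had a median absolute difference of 0.130, against 0.048 for the subunits and 0.113 for all genes tested. The contrast with the subunits was not tested. Of 19 measured partners, 7 were higher in both cardio-renal arrays (36.8%, against 30.6% of all genes). Another 5 were lower in both (26.3%, against 29.8%) and 7 were of opposite signs, with a median of 0.018. By limma, 0 partners passed the adjusted p and 1 had an unadjusted p under 0.05. That one, *Psmg3*, a chaperone of 20S assembly, had signals of 651.4 and 724.9 in the cardio-renal arrays, against 485.6 with uninephrectomy alone, a difference of 0.48 ± 0.10 (SD, n = 2), and its adjusted p by limma was 0.9998. *Psmg4*, its partner in assembly, had 592.3 and 653.5, against 503.4, and stood at 0.29 ± 0.10. The remaining chaperones of the same family, named after their values were seen, stood at 0.16 ± 0.0014 for *Psmg1* and 0.10 ± 0.04 for *Psmg2* (SD, n = 2), so all 4 were higher in both cardio-renal arrays.

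On the other side, *Akirin2*, which carries proteasomes into the nucleus, had signals of 2908 and 2838 in the cardio-renal arrays, against 3589 with uninephrectomy alone, a difference of -0.32 ± 0.03 (SD, n = 2). *Zfand2a*, a stress-induced protein that binds the 19S particle, stood at -0.21 ± 0.03. The transcriptional regulator *Nfe2l1*, named after its value was seen because it controls the members, had signals of 1899 and 1762, against 1862, and stood at -0.025 ± 0.075. *Pomp*, the maturation factor of the core, also named afterwards, had 4061 and 5138, against 5074.

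Genes that supply ubiquitin and deliver substrates had a median of -0.055 over the 13 of 20 listed that were named here. Of these 13, 3 were higher in both cardio-renal arrays (23.1%, against 30.6% of all genes tested). Another 5 were lower in both (38.5%, against 29.8%) and 5 were of opposite signs (against 39.6%). *Ube2d1*, a ubiquitin-conjugating enzyme, had signals of 610.4 and 554.8 in the cardio-renal arrays, against 408.0 with uninephrectomy alone, a difference of 0.48 ± 0.09 (SD, n = 2), and *Ube2d3* stood at 0.048 ± 0.011. The shuttle *Ubqln1* stood at -0.20 ± 0.14 and the conjugating enzyme *Ube2n* at -0.10 ± 0.05. By limma, 0 of the 13 passed the adjusted p and 1 had an unadjusted p under 0.05.

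**Figure D4:**
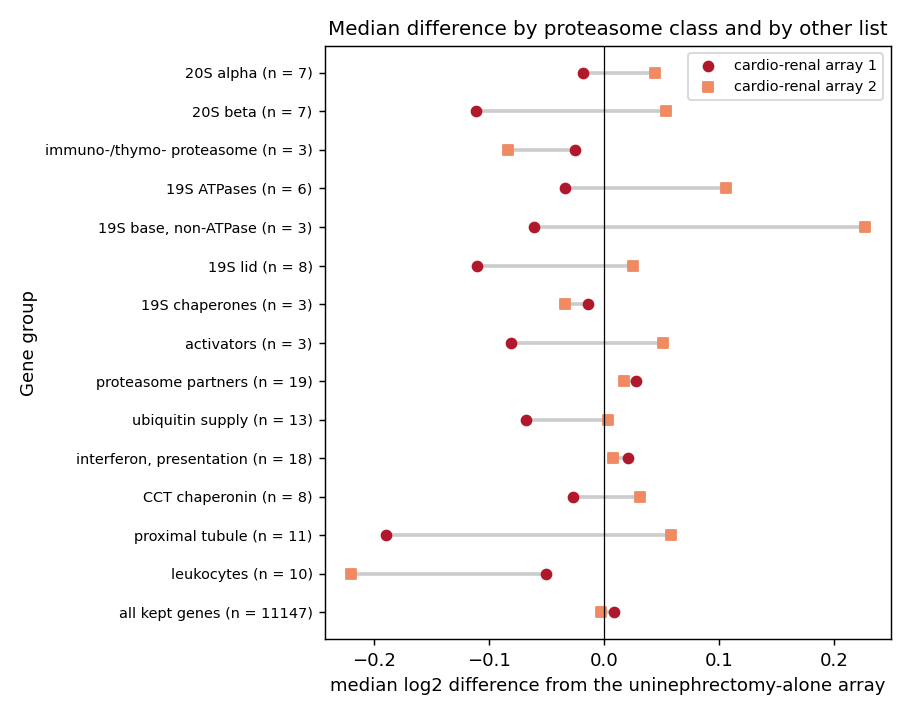
Median log2 difference from the uninephrectomy-alone array on cardio-renal array 1 (circles) and array 2 (squares) for the 8 proteasome classes, 6 other gene lists and all kept genes, with the number of genes in each. Only genes above the filter enter, so the leukocyte medians are those of 10 markers. The array 1 median lies below the array 2 median in 6 of the 8 proteasome classes and above it in the immunoproteasome and 19S chaperone classes.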

How the data were processed

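Per the submitters' processing notes, the authors used MAS5 (no version stated) to make the deposited intensities, linear signals of 45101 probe sets. The mean trimmed by 2% at each end was 500 on each array, and nothing more was done to scale them. Biotin-labelled cRNA was made from 250 ng of total RNA with a 3' kit, per the labels' protocols. Dim MAS5 signals are noisy, since mismatch probes are subtracted. The number of arrays limits the precision. Probe sets with 1 symbol (34958) were named from the platform annotation, and 932 with several were not.

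Values were analysed as log2(signal + 28.8), with the 25th percentile of all probe sets (median of the 3 arrays) as offset, which understates differences of dim genes. Differences are cardio-renal minus uninephrectomy, with the SD over 2 arrays. The fit was limma 3.58.1 in R 4.3.3 (lmFit, eBayes with trend, two-sided) over all 3 arrays, tested on simulated data. Members, lists and tests were chosen with earlier results of these data known, and motifs and promoter stretches after the values had been seen. Every member may be named, and from each other list 2 genes above and 2 below the control, those furthest from it in both arrays; others are marked in the text. Alternatives were other offsets, quantile normalization, other filters, other choices of probe set, limma with a robust or no trend, and leaving out each cardio-renal array.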

Additional observations from a re-analysis of the deposited data

How the results depend on the processing

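With offsets of 16 and 100, quantile normalization, no filter, a filter at the 75th percentile, the mean of all probe sets of a gene and without shared-sequence probe sets, limma called 0 of the proteasome genes and 0 of all genes, as it did with a robust trend or with no trend. The lowest adjusted p over all genes was 0.154 in the reported fit. The count of proteasome genes at least 2-fold apart in both arrays was 0 under every alternative run, the arrays left out in turn included. The direction of the members' median depended on 1 array. Without cardio-renal array 1 it was 0.052 and without array 2 -0.077, for the core particle 0.049 and -0.098, for the regulatory particle 0.088 and -0.056, and for the immunoproteasome -0.083 and -0.025, which kept its sign. The immunoproteasome median was -0.018 with the mean of all probe sets, which brings in a dim second probe set of *Psmb8*. Of 40 member differences, 12 changed sign with the mean of all probe sets, 13 without array 1, 12 without array 2 and 0 under the other alternatives. Of 18 members with several probe sets above the filter, 8 had all of them on 1 side of 0. Added after the data were seen, the count of members lower on array 1 than on array 2 was 31 after quantile normalization (51.0% of all genes), 31 of 36 with the stricter filter (51.4%) and 26 with the mean of all probe sets. The count with array 1 lowest and array 2 highest was 18 after quantile normalization (20.2%) and 16 with the mean of all probe sets (17.3%). Counts of all genes at least 2-fold higher in both arrays, 15 as reported, were 8 with an offset of 100, 76 with no filter, 2 with the stricter filter, 9 with the mean of all probe sets, 25 without array 1 and 55 without array 2; those at least 2-fold lower, 6 as reported, were 3, 19, 3, 4, 23 and 69 in the same order, with 4 also without shared-sequence probe sets. No paired analysis was possible because the uninephrectomy-alone group holds 1 array, and the array numbers only follow the order of deposit. With 1 array left out no spread remains, so limma was not run there.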
